A study of Mus musculus with 46 samples.

Results

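A group of 38 genes of the cell cycle and of DNA replication was followed in the messenger RNA of adult mouse hearts after deletion of Lmna, the gene of lamins A and C. The genes were taken by name from the deposited count table of 55359 genes, and all 38 were found there under 1 identifier each. They comprise 11 genes of S phase (Mcm2 to Mcm7, Pcna, Rrm1, Rrm2, Tyms and Tk1), 3 regulators of the passage from G1 to S (E2f1, Ccne1 and Ccne2) and 24 genes of G2 and mitosis. All 38 passed the filter on low counts in both sequencing kits, so each was tested in every comparison.

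The hearts came from mice with a cardiomyocyte-specific Cre recombinase, Myh6MCM Tg/0 (spelled My6MCM in part of the labels), that becomes active on tamoxifen. Every mouse, controls included, carried this transgene and received tamoxifen at 6 to 8 weeks of age. RNA was extracted from perfused hearts of both sexes, so cells in which the transgene is not active contributed RNA as well. A set of 26 NEBNext libraries, which cover whole poly(A) transcripts, compared Lmna F/F with Lmna +/+ hearts at 1 week (4 F/F and 5 +/+), 11 days (2 F/F and 3 +/+) and 2 weeks (5 F/F and 7 +/+) after tamoxifen. A set of 20 QuantSeq libraries, which count 1 tag near the 3' end of a transcript, compared Lmna F/F with Lmna F/+ hearts at 2 weeks. It held 6 F/F and 6 F/+ hearts with cGas (cGas +/+) and 4 F/F and 4 F/+ hearts without it (cGas null/null). cGas is the cytosolic DNA sensor encoded by Cgas, and the crosses address when transcripts change after Lmna loss and whether the change depends on cGas. The title of each library ends in a number of its own, which the labels do not explain, so the spread behind each p-value is that among libraries.

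A cell that divides first commits in late G1, when cyclin E with its kinase releases E2F factors from the retinoblastoma family and E2F targets such as the Mcm genes are transcribed. In S phase the Mcm2 to Mcm7 ring unwinds DNA, the Pcna clamp holds the polymerases, and ribonucleotide reductase, thymidylate synthase and thymidine kinase supply nucleotides. Genes of G2 and mitosis follow later, under Foxm1, B-Myb and the DREAM complex, through promoter elements such as the CHR and the CCAAT box. Adult cardiomyocytes rarely divide, while fibroblasts, endothelial cells and immune cells of the heart can.

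Library totals were 8477358 to 25856892 counts in NEBNext and 22099181 to 33993289 in QuantSeq. The members were thinly covered: their counts per library had a median of 40 in NEBNext (range 0 to 1770, with 13 of 988 values at 0) and of 62 in QuantSeq (range 1 to 1120). Lmna, the targeted gene, averaged 33.3 ± 4.38 CPM (read counts scaled to a common library size, with TMM factors) in F/F and 59.0 ± 9.22 in +/+ hearts at 1 week (SD, n = 4 and 5, p = 0.0159 by an exact two-sided permutation test). Its means at 2 weeks were 85.2 ± 26.9 in F/F and 113 ± 7.02 in +/+ hearts (SD, n = 5 and 7, exact two-sided permutation p = 0.0101). The 2 libraries labelled F/F at 11 days had 58.4 ± 0.0513, against 92.2 ± 35.2 in the 3 labelled +/+ (SD, exact two-sided permutation p = 0.4, where 0.1 is the smallest the design allows). The 5 F/F hearts of 2 weeks were uneven, with 42.2, 108, 108, 82.8 and 84.9 CPM, against 105 to 125 (median 111) CPM in the 7 +/+ hearts, so that 2 of them lay within the +/+ range. At 11 days 1 of the 3 libraries labelled +/+ lay below both labelled F/F. In QuantSeq the 3' tag of Lmna did not separate F/F from F/+ hearts with cGas, at 20.5 ± 4.44 and 22 ± 3.01 CPM (SD, n = 6 each, exact two-sided permutation p = 0.504), nor without cGas, at 22.2 ± 5.87 and 23.7 ± 2.54 CPM (SD, n = 4 each, exact two-sided permutation p = 0.686). The sources do not say whether that tag lies in the deleted part. Cgas was lower in cGas null than in cGas +/+ hearts, at 0.876 ± 0.258 and 2.88 ± 0.765 CPM among F/F hearts (SD, n = 4 and 6, exact two-sided permutation p = 0.00952). The 7 cardiomyocyte markers listed (such as Myh6 and Tnnt2) summed to at least 13586 CPM in every library, so heart muscle RNA was abundant throughout.

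At 2 weeks, nearly the whole cell cycle list was higher in F/F than in +/+ hearts in NEBNext, as a share of the RNA. Fold changes were larger in most mitotic genes than in most S phase genes. Of the 38 members, 37 passed the test as higher in F/F and 0 as lower, where 16.2% of the 15627 genes tested passed as higher and 13.0% as lower (edgeR quasi-likelihood test, Benjamini-Hochberg adjusted p under 0.05). All 11 S phase genes and all 3 G1/S regulators were among them, with median log2 fold changes of 0.96 and 1.38. Of the 24 mitotic genes 23 were higher, with a median log2 fold change of 2.04, and Cenpf was the exception. The median over all genes tested was 0.04, and the difference between the gene groups itself was not tested. In QuantSeq 20 of 38 were higher in F/F hearts with cGas, and the medians of the 3 groups lay closer together, at 0.74, 0.92 and 0.94. At 1 week and at 11 days 0 of 38 passed. CPM is a share of the RNA sequenced, and these are whole hearts. More cells of a dividing kind, more RNA per cell and a smaller share of cardiomyocyte RNA cannot be told apart. The 7 cardiomyocyte markers summed to means of 42811 CPM in F/F and 68103 CPM in +/+ hearts of 2 weeks.

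Scores that average log2(normalised CPM + 1) over the genes of a group show how the libraries compare. For S phase it was 2.92, 3.95, 4.46, 3.99 and 4.00 in the 5 F/F hearts of 2 weeks, against 2.74 to 3.02 (median 2.90) in the 7 +/+ hearts. For mitosis it was 1.95, 2.98, 3.30, 2.80 and 2.71 in F/F, against 1.02 to 1.80 (median 1.32) in +/+. For the G1/S regulators it was 1.62, 1.89, 2.61, 2.11 and 2.37 in F/F, against 0.875 to 1.29 (median 1.19) in +/+. The levels per library are not adjusted for the pool named in the labels: F/F replicates 1 and 2 and +/+ replicates 1 to 5 carry the pool label KIUC033, and the other hearts KIUC035. Replicate 1 of F/F stood apart from the other 4, also from replicate 2 of its pool: its S phase score lay inside the range of the +/+ hearts, while its mitotic and G1/S scores lay just above every +/+ heart. Counted gene by gene, that heart exceeded every +/+ heart in 15 of 24 mitotic and 2 of 11 S phase genes. Each of the other 4 F/F hearts did so in 23 of 24 and 11 of 11. The same count over all genes was not made for single hearts, so these counts describe the members only. Leaving replicate 1 out gave 37 calls again, and raised the median log2 fold change of S phase to 1.26 and of mitosis to 2.42. Leaving replicate 2 out gave 31 calls, with 7 of 11 in S phase and 22 of 24 in mitosis.

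**Figure D1:**
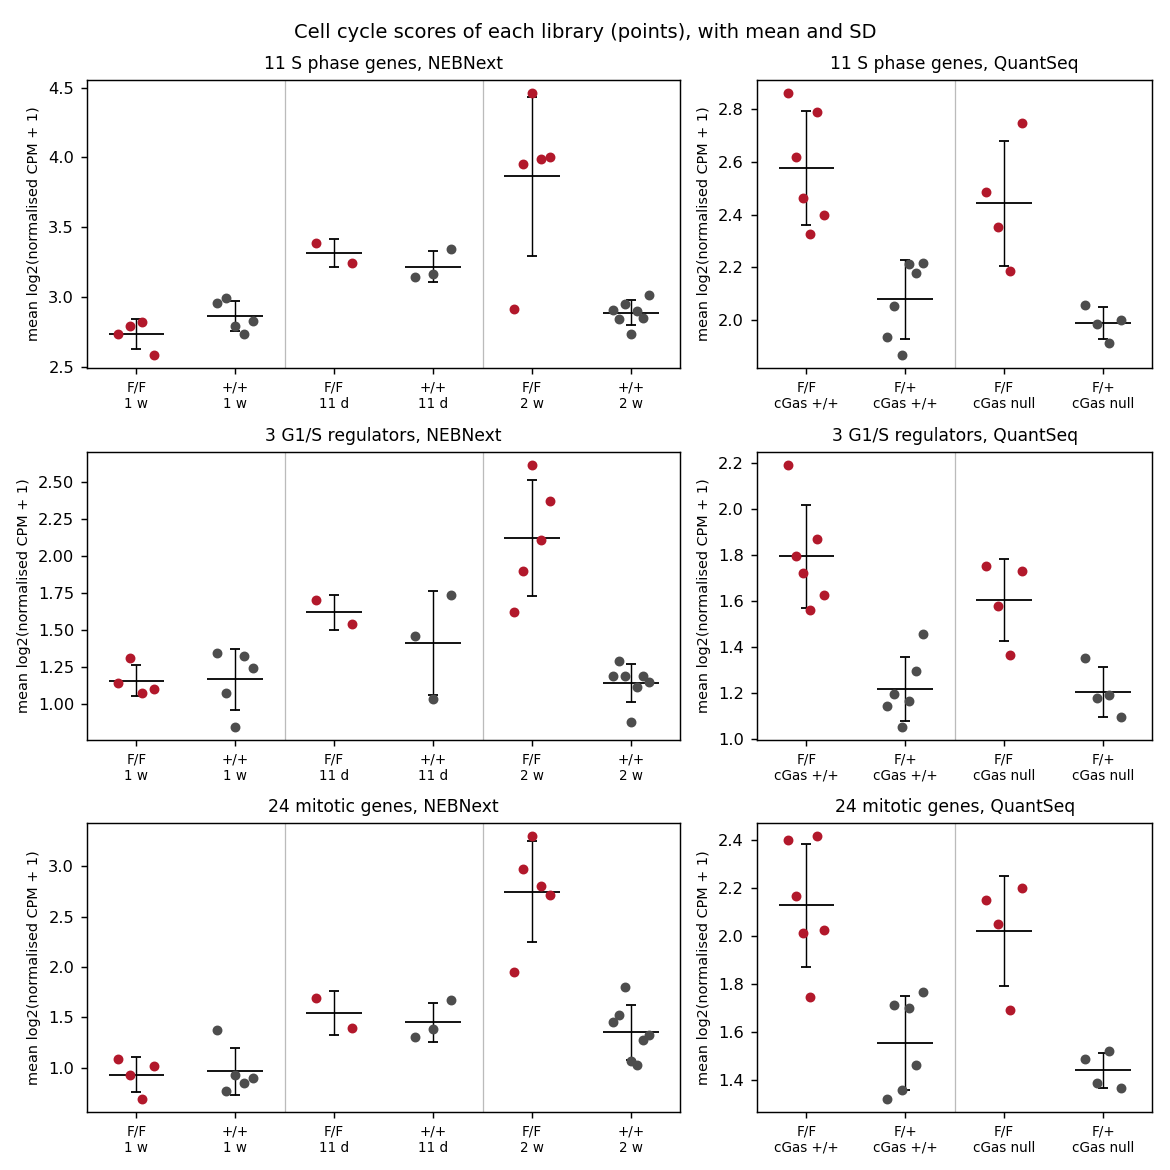
Mean log2(normalised CPM + 1) over the 11 S phase genes, the 3 G1/S regulators and the 24 mitotic genes in each library (points), with the mean and SD of each group, for NEBNext (left) and QuantSeq (right). At 2 weeks in NEBNext 4 of 5 F/F hearts lie far above the 7 +/+ hearts on all 3 scores, while at 1 week and 11 days F/F and +/+ overlap.

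The promoters of the members were searched for 3 known cell cycle motifs, and the shares were not tested against each other. RefSeq promoters (build GRCm38.p6, from 250 bases before to 50 after the annotated start) were matched by symbol for 31 of the 38 members, in 33 promoters, and set beside all 32851 promoters of the table. An E2F-type motif (TTTCGCGC or TTTGGCGC, both strands) stood in 4 of 11 S phase promoters (36.4%), in 1 of 20 mitotic promoters (5%) and in 0.813% of all promoters. A CHR-type motif (TTTGAA or TTCGAA, both strands) stood in 2 of 11 S phase promoters (18.2%), in 15 of 20 mitotic promoters (75%) and in 19.2% of all. The CCAAT box (CCAAT, both strands) was frequent in both, at 81.8% of S phase and 80% of mitotic promoters, against 37.4% of all. The pair of a CHR-type motif and a CCAAT box stood in 70% of mitotic, 18.2% of S phase and 7.52% of all promoters. None of the 2 G1/S promoters matched (Ccne1 and E2f1) held any of the 3 motifs, which says only that these letters are not in that window. The E2f1 window reads in part as codons of E2F1 itself, so it lies inside the gene. The stretch upstream of E2f1 was not searched. A match is a description of the letters and not of a bound site. Mcm7 and Prc1 are counted with 2 promoters each. The 2 Prc1 windows overlap and hold the same CHR-type motif and CCAAT box, so they are not separate cases. No promoter was matched for Mcm4, Ccne2, Tpx2, Ccna2, Aurkb, Foxm1 and Kif20a.

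Shown are 2 helicase promoters with E2F-type motifs and 3 promoters of a mitotic cyclin or kinase with CHR-type motifs, 5′ to 3′ in the direction of transcription on GRCm38.p6. Capitals mark every E2F-type, CHR-type and CCAAT match on either strand, so that ATTGG is a CCAAT box on the other strand and abutting or overlapping matches run together.
Mcm5 promoter, chr8:75109259-75109558, plus strand: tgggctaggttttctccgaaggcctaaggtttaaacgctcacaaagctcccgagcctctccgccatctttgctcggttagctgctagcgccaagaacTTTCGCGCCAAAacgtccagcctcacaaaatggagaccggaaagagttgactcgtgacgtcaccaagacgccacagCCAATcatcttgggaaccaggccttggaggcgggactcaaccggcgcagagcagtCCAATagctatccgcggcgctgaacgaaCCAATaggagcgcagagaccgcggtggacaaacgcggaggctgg
Mcm6 promoter, chr1:128359656-128359955, minus strand: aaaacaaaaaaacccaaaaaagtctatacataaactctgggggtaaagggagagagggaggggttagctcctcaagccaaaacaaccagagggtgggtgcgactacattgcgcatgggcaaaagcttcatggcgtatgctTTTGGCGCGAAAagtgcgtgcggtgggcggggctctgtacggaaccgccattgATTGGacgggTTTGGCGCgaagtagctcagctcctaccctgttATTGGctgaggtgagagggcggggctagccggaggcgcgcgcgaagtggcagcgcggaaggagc
Cdk1 promoter, chr10:69352863-69353162, minus strand: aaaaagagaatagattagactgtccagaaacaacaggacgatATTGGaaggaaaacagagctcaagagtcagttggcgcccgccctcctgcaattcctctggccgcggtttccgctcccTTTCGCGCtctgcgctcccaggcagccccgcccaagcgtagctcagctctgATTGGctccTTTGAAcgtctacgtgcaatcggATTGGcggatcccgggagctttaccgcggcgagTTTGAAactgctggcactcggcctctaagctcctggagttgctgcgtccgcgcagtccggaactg
Ccnb2 promoter, chr9:70421505-70421804, minus strand: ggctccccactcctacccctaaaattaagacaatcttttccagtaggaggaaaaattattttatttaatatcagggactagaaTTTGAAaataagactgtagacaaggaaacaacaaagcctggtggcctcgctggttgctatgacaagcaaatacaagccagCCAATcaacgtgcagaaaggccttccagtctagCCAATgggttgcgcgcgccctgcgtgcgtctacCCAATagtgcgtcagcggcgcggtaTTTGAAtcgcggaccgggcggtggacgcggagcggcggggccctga
Plk1 promoter, chr7:122159185-122159484, plus strand: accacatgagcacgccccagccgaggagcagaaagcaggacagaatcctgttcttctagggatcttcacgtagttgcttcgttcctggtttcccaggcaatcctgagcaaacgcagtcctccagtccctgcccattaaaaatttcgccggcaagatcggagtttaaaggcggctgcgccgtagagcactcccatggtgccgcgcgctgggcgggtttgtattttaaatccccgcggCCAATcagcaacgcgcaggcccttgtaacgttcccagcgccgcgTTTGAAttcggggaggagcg
In Mcm5 an E2F-type motif on each strand overlaps the other, with first bases at -153 and -149 from the annotated start, and in Mcm6 such a pair begins at -110 and -106 with a further one at -47. Cdk1, the kinase of mitotic entry, was the mitotic member with an E2F-type motif (at -131), and it held CHR-type motifs at -71 and -15 as well. Ccnb2, a mitotic cyclin, held a CHR-type motif at -167, then 3 CCAAT boxes at -87, -54 and -21 followed by a CHR-type motif at 4. In Plk1, the polo-like kinase, a CCAAT box at -14 was followed by a CHR-type motif at 30.

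**Figure D2:**
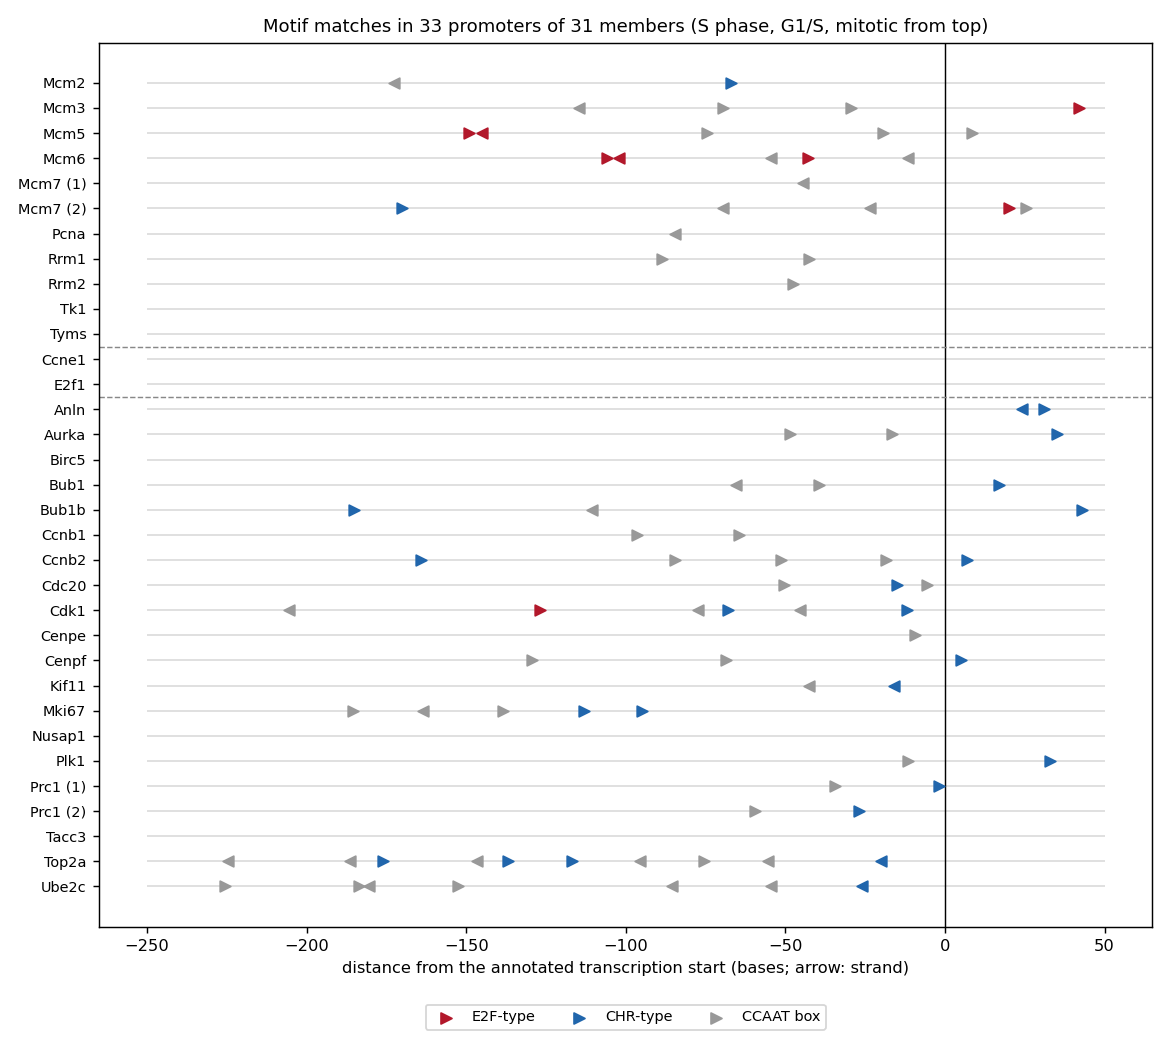
Positions of E2F-type (red), CHR-type (blue) and CCAAT (grey) matches in 33 promoters of 31 members, in bases from the annotated start, with arrows for the strand and dashed lines between S phase, G1/S and mitotic genes. Red marks stand in Mcm3, Mcm5, Mcm6, Mcm7 and Cdk1, and blue marks in 15 of the 20 mitotic promoters.

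The helicase genes Mcm2 to Mcm7 were all higher in F/F hearts of 2 weeks, and Mcm6 and Mcm5 most. Mcm6 had 10.9, 22.5, 32.6, 21.8 and 23.2 CPM in the 5 F/F hearts, against 5.73 to 9.47 (median 7.30) CPM in the 7 +/+ hearts. Every F/F heart was above every +/+ heart, replicate 1 by the least, and the log2 fold change was 1.53 ± 0.24 (SE, edgeR adjusted p = 5.97e-05). Mcm5 had 4.82, 14.7, 26.6, 16.4 and 19.5 CPM in F/F, against 3.40 to 6.37 (median 4.78) CPM in +/+, with replicate 1 of F/F inside the +/+ range (log2 fold change 1.48 ± 0.26, SE, edgeR adjusted p = 0.000174). The other 4 helicase genes had log2 fold changes of 0.96 (Mcm4), 0.93 (Mcm3), 0.69 (Mcm2) and 0.64 (Mcm7), with edgeR adjusted p between 0.000344 and 0.0152. In each of these 4 genes, 4 of 5 F/F hearts exceeded every +/+ heart.

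Both subunit genes of ribonucleotide reductase, the enzyme that makes deoxynucleotides, were higher in F/F hearts. Rrm2, the small subunit whose level follows S phase, had 3.48, 7.29, 11.0, 8.97 and 7.36 CPM in F/F, against 1.70 to 2.73 (median 2.15) CPM in +/+ hearts. The groups did not overlap, and the log2 fold change of 1.67 ± 0.24 was the largest of the S phase genes (SE, edgeR adjusted p = 3.05e-05). Rrm1, the large subunit, had 15.3, 27.8, 37.9, 28.6 and 25.5 CPM in F/F, against 13.2 to 18.9 (median 17.8) CPM in +/+ hearts. Here replicate 1 of F/F was among the +/+ hearts, and the log2 fold change was 0.57 ± 0.17 (SE, edgeR adjusted p = 0.0130). Tyms, thymidylate synthase, had 2.81, 9.06, 12.3, 8.15 and 8.74 CPM in F/F, against 1.88 to 3.28 (median 2.60) CPM in +/+ hearts, with replicate 1 again inside the +/+ range (log2 fold change 1.42 ± 0.24, SE, edgeR adjusted p = 0.000146). Tk1, the thymidine kinase of dividing cells, rose by 1.20 (edgeR adjusted p = 0.00405).

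Pcna, the sliding clamp, had the smallest difference of the S phase genes. It measured 25.0, 44.6, 46.7, 38.5 and 36.3 CPM in F/F, against 19.6 to 34.8 (median 30.5) CPM in +/+ hearts. Replicate 1 lay below most +/+ hearts and the other 4 F/F hearts above all of them (log2 fold change 0.43 ± 0.16, SE, edgeR adjusted p = 0.0444). Pcna also serves DNA repair, and it was by far the most abundant member per transcript length, at 31.8 ± 4.49 TPM in the 7 +/+ hearts of 2 weeks (SD).

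The regulators of the G1 to S passage were higher to a like degree. Ccne1, cyclin E1, had 2.47, 2.73, 4.43, 3.73 and 4.15 CPM in F/F, against 0.592 to 1.69 (median 1.43) CPM in +/+ hearts, without overlap (log2 fold change 1.38 ± 0.27, SE, edgeR adjusted p = 0.000516). E2f1, an activating E2F factor, had 1.07, 3.79, 8.71, 4.42 and 6.41 CPM in F/F, against 0.518 to 1.70 (median 1.33) CPM in +/+ hearts. Replicate 1 of F/F lay within the +/+ range and the other 4 well above it (log2 fold change 1.44 ± 0.39, SE, edgeR adjusted p = 0.00698). Ccne2, cyclin E2, rose by 1.33 (edgeR adjusted p = 0.0104), also without overlap of the groups.

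The cyclins and kinases of mitosis were all 7 higher in F/F hearts, by log2 fold changes between 1.74 for Cdk1 and 2.35 for Plk1. Plk1 had 1.68, 5.16, 7.36, 4.45 and 3.66 CPM in F/F, against 0.370 to 1.08 (median 0.823) CPM in +/+ hearts. Aurka, Aurora kinase A of the spindle poles, had 2.41, 5.31, 9.71, 4.88 and 5.08 CPM in F/F, against 0.666 to 1.46 (median 1.08) CPM in +/+ hearts. Neither gene's groups overlapped, with replicate 1 lowest among F/F, and the log2 fold changes were 2.35 ± 0.36 and 2.15 ± 0.33 (SE, edgeR adjusted p = 5.02e-05 for Plk1 and 4.63e-05 for Aurka). Ccna2, cyclin A2 of S and G2, rose by 2.22, Aurkb, the kinase of the chromosomal passenger complex, by 2.18, and the B-type cyclin genes Ccnb1 and Ccnb2 by 2.02 and 2.01, with edgeR adjusted p at most 0.0147. Foxm1, the transcription factor of G2 and mitotic genes, had 1.23, 3.69, 6.73, 3.73 and 3.64 CPM in F/F, against 0.518 to 1.11 (median 0.853) CPM in +/+ hearts. All F/F hearts were above all +/+ hearts, narrowly so for replicate 1 (log2 fold change 2.05 ± 0.45, SE, edgeR adjusted p = 0.00134).

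All 5 genes of the spindle checkpoint, its partners and the anaphase-promoting complex were higher. Ube2c, the ubiquitin-conjugating enzyme of that complex, had 2.02, 6.02, 11.3, 7.30 and 6.98 CPM in F/F, against 0.592 to 1.93 (median 1.51) CPM in +/+ hearts, with replicate 1 just above the highest +/+ heart (log2 fold change 2.01 ± 0.33, SE, edgeR adjusted p = 8.82e-05). Bub1b, which encodes the checkpoint protein BubR1, had 2.47, 6.38, 10.3, 6.29 and 6.43 CPM in F/F, against 0.919 to 2.34 (median 1.32) CPM in +/+ hearts (log2 fold change 1.99 ± 0.36, SE, edgeR adjusted p = 0.000278). The groups stood apart, with replicate 1 of F/F close to the highest +/+ heart. The checkpoint kinase gene Bub1 rose by 2.62 (edgeR adjusted p = 0.00147). It averaged 0.259 CPM in +/+ hearts, so its fold change rests on few reads. Birc5, survivin of the passenger complex, rose by 1.96, and Cdc20, the activator of the anaphase-promoting complex, by 1.73, with edgeR adjusted p of 0.000412 and 0.000466.

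Genes of the spindle and of cytokinesis were alike in size of change, with 7 of 7 higher and log2 fold changes from 1.77 to 2.12. Tacc3, which stabilises spindle microtubules, had 4.21, 9.01, 11.0, 7.43 and 7.56 CPM in F/F, against 1.66 to 2.96 (median 2.09) CPM in +/+ hearts. Kif11, the motor that separates spindle poles, had 3.25, 3.34, 3.69, 2.39 and 3.06 CPM in F/F, against 0.517 to 1.61 (median 0.689) CPM in +/+ hearts. Both sets of groups stood apart (log2 fold changes 1.87 ± 0.26 and 2.11 ± 0.30, SE, edgeR adjusted p = 2.11e-05 for Tacc3 and 2.13e-05 for Kif11). Tpx2, which activates Aurora A, rose by 2.12, Nusap1, a spindle microtubule bundler, by 2.12, and Anln, a scaffold of the contractile ring, by 2.02. Kif20a and Prc1, both of the central spindle, rose by 1.80 and 1.77, with edgeR adjusted p at most 0.000799.

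The markers of chromosomes in dividing cells were higher in all 5 F/F hearts. Top2a, the topoisomerase that untangles replicated DNA, had 10.1, 22, 22.1, 14.7 and 16.3 CPM in F/F, against 2.25 to 7.63 (median 2.59) CPM in +/+ hearts, and Mki67, the proliferation marker Ki-67, had 7.01, 13.4, 6.33, 5.11 and 6.06 CPM in F/F, against 0.893 to 4.67 (median 1.58) CPM in +/+ hearts. Their groups did not overlap (log2 fold changes 2.31 ± 0.33 and 2.29 ± 0.39, SE, edgeR adjusted p = 2.25e-05 for Top2a and 0.000154 for Mki67). By pool, Mki67 had 7.01 and 13.4 CPM in F/F, against 1.43 to 4.67 CPM in +/+ hearts of KIUC033, and 5.11 to 6.33 CPM in F/F, against 0.893 and 1.05 CPM in +/+ hearts of KIUC035. The +/+ hearts were not uniform, since replicates 2 and 3 of +/+ had 6.33 and 7.63 CPM of Top2a and the other 5 had less than 3.

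Of the kinetochore genes 1 of 2 was higher. Cenpe, the kinetochore motor, had 1.96, 2.88, 2.30, 1.47 and 1.53 CPM in F/F, against 0.0811 to 1.31 (median 0.322) CPM in +/+ hearts, without overlap, and its log2 fold change of 2.79 ± 0.52 was the largest of the 38 (SE, edgeR adjusted p = 0.000344). Cenpf, a kinetochore protein of G2 and mitosis, had 14.1, 9.41, 3.43, 5.24 and 5.45 CPM in F/F, against 3.20 to 23.0 (median 9.99) CPM in +/+ hearts. The highest value was in a +/+ heart and the groups overlapped. The log2 fold change of 0.20 ± 0.45 did not pass (SE, edgeR adjusted p = 0.774, 95% interval -0.67 to 1.08), and it was -0.37 with no covariates in the fit. Fitted within a pool it was 0.47 in KIUC033 (edgeR adjusted p = 0.503) and 0.42 in KIUC035 (edgeR adjusted p = 0.255). The first 2 F/F values are of KIUC033 and the others of KIUC035.

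**Figure D3:**
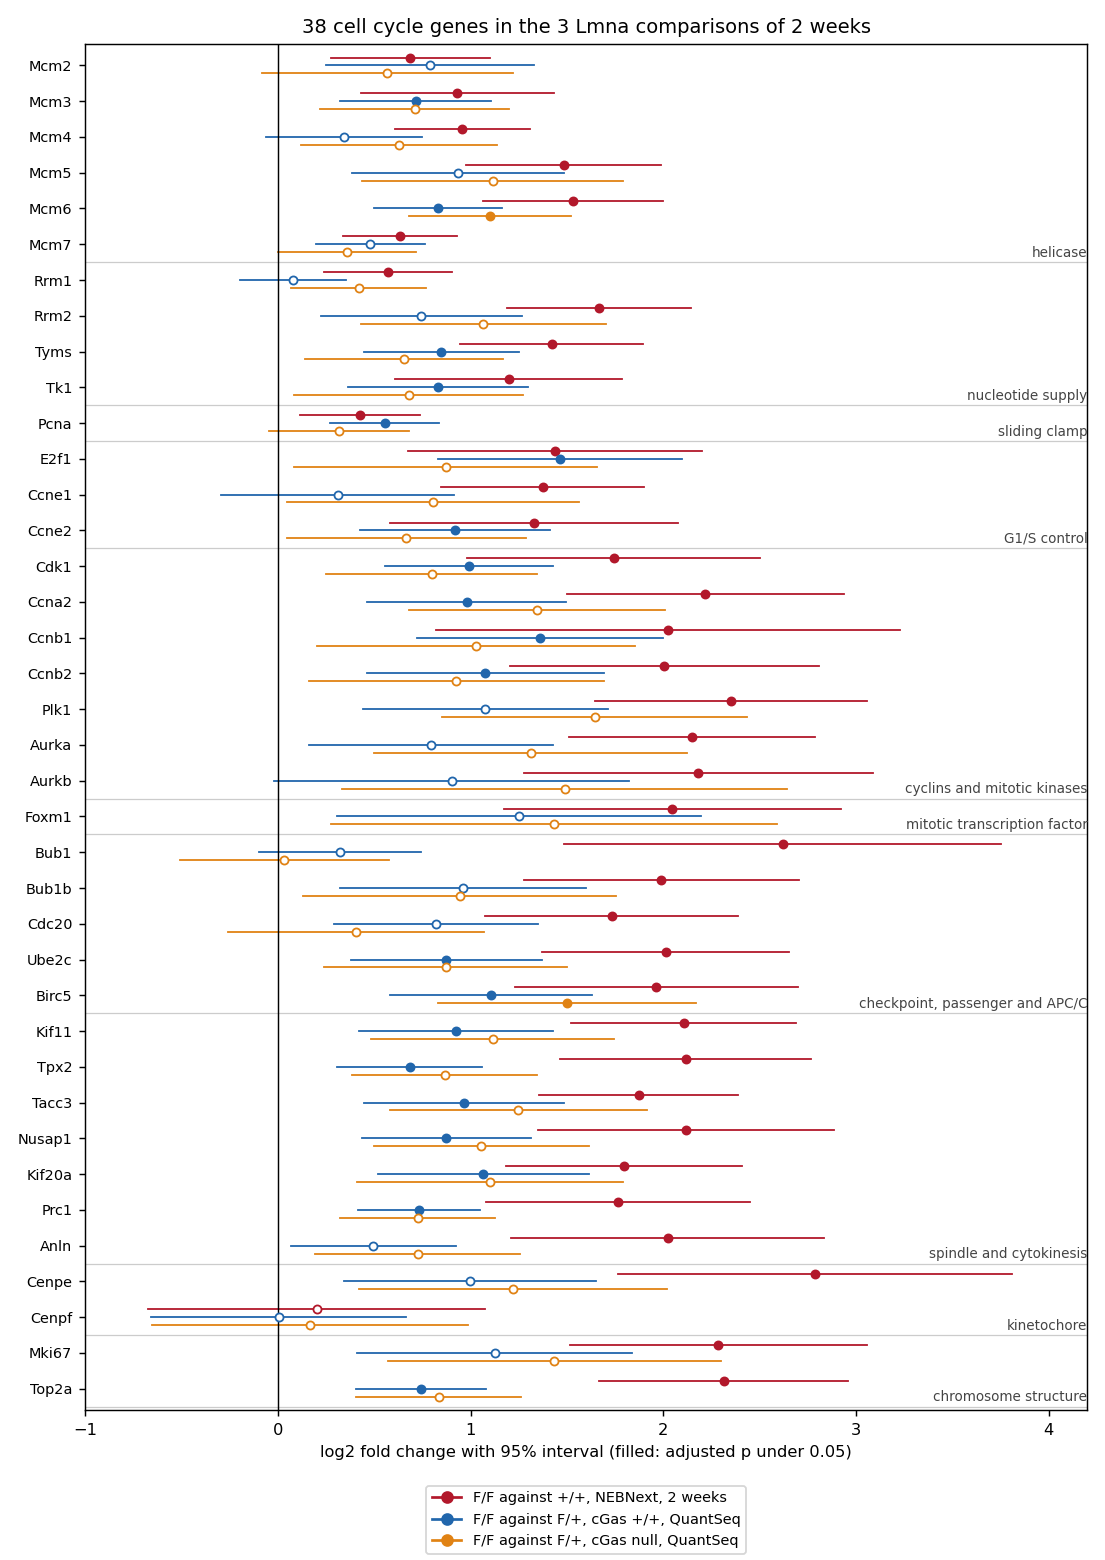
Log2 fold change of each member with its nominal 95% interval (from the normal distribution), ordered by role. Red is F/F against +/+ at 2 weeks in NEBNext. Blue is F/F against F/+ in QuantSeq with cGas, and orange the same without cGas. Filled points had an edgeR adjusted p under 0.05. In NEBNext 37 of 38 points are filled, and Cenpf lies near 0 in all 3 comparisons.

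**Figure D4:**
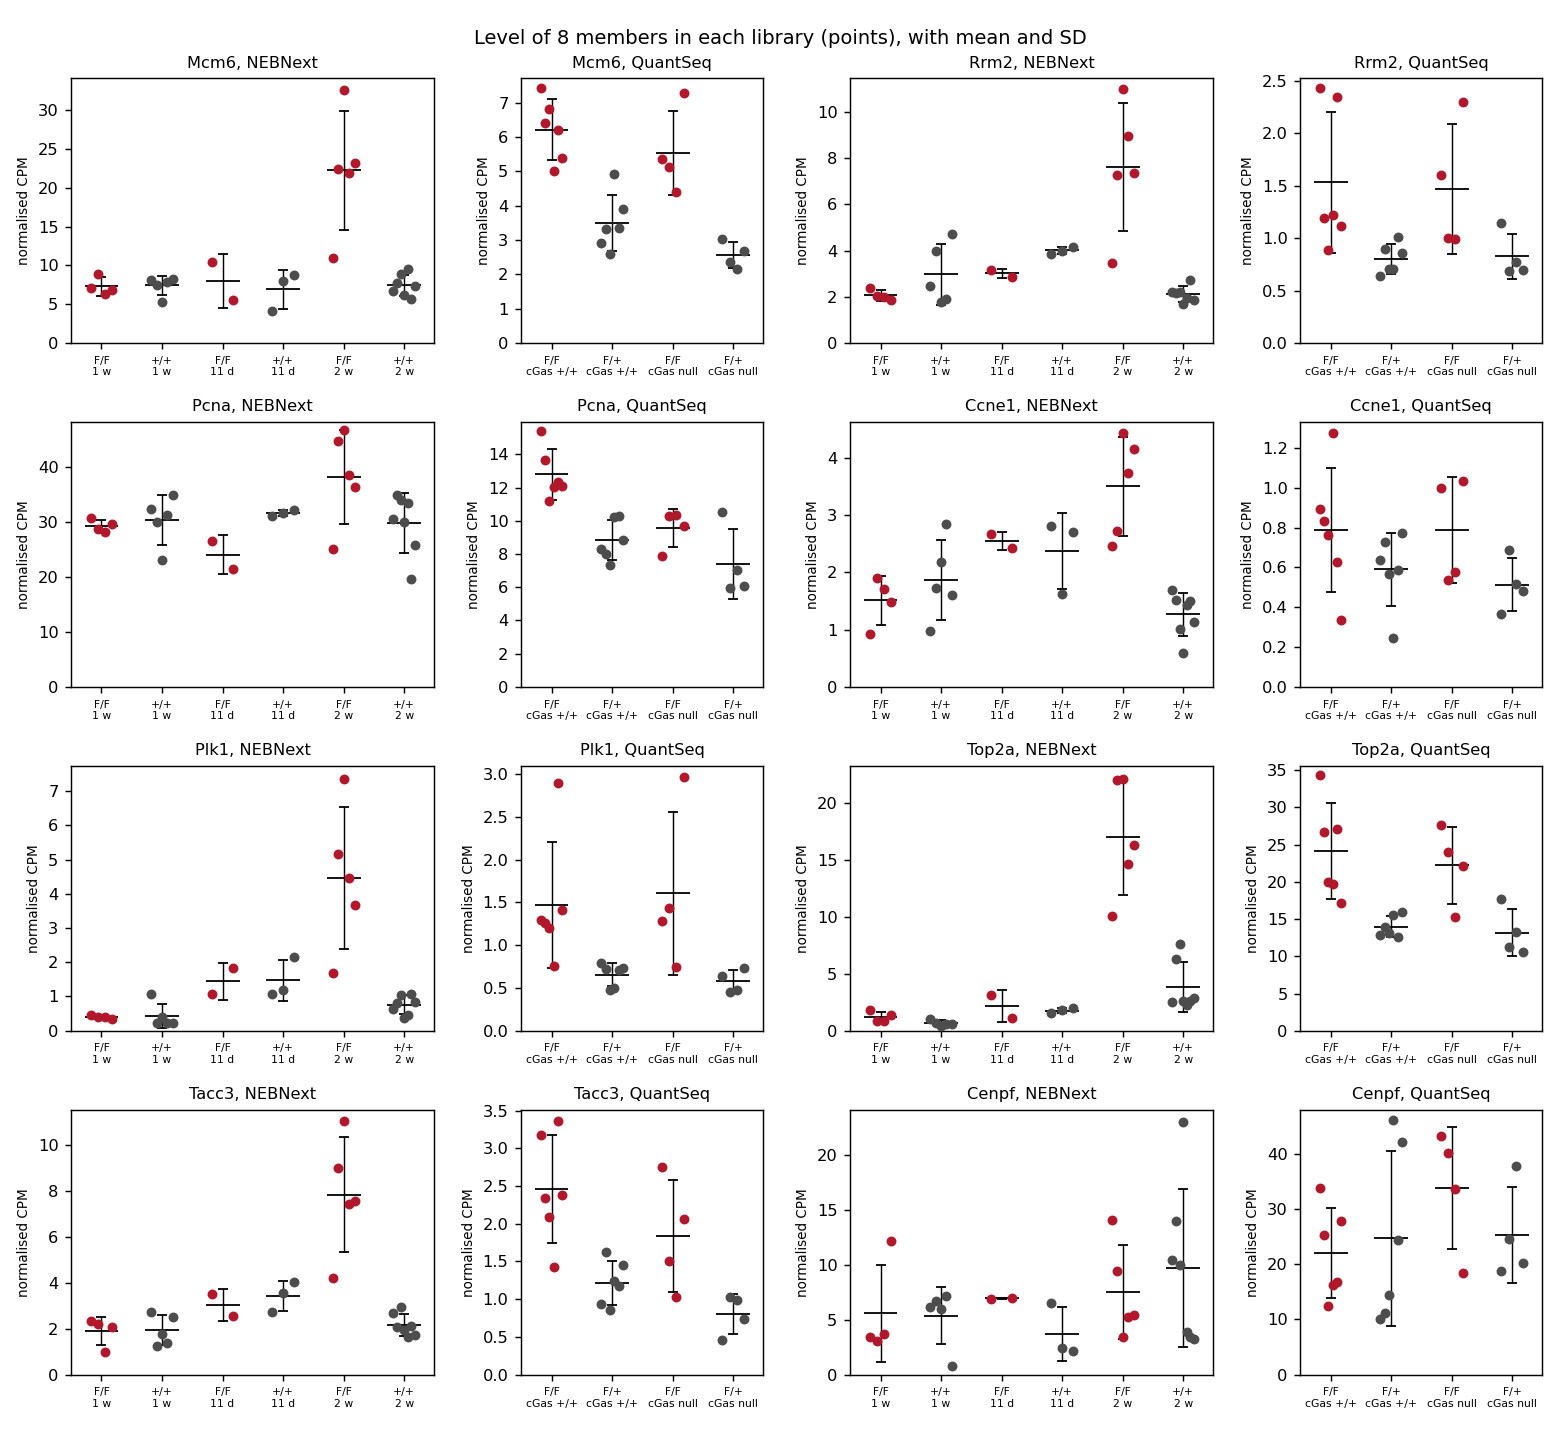
Normalised CPM of 8 members in every library (points), with the mean and SD of each group, for NEBNext and QuantSeq. Mcm6, Rrm2, Ccne1, Plk1, Top2a and Tacc3 separate F/F from +/+ at 2 weeks in NEBNext, Pcna does so in 4 of 5 F/F hearts, and Cenpf varies between libraries of either genotype.

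Within the list, members that were more abundant in +/+ hearts had smaller fold changes. In +/+ hearts of 2 weeks the S phase genes had a median of 2.77 TPM (range 1.35 to 31.8) and the mitotic genes of 0.845 TPM (range 0.105 to 1.94). Across the 38 genes the log2 of the TPM and the log2 fold change had a Pearson r of -0.78 and a Spearman rho of -0.76. Within the 11 S phase genes these were -0.80 and -0.85, and within the 24 mitotic genes -0.54 and -0.65. The same 7 +/+ libraries enter both axes and genes are not independent replicates, so these are descriptions. The sum over the 11 S phase genes was 1.91 times as high in F/F as in +/+ hearts, at means of 181 and 94.9 CPM, and that over the 24 mitotic genes 3.55 times, at 169 and 47.6 CPM.

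**Figure D5:**
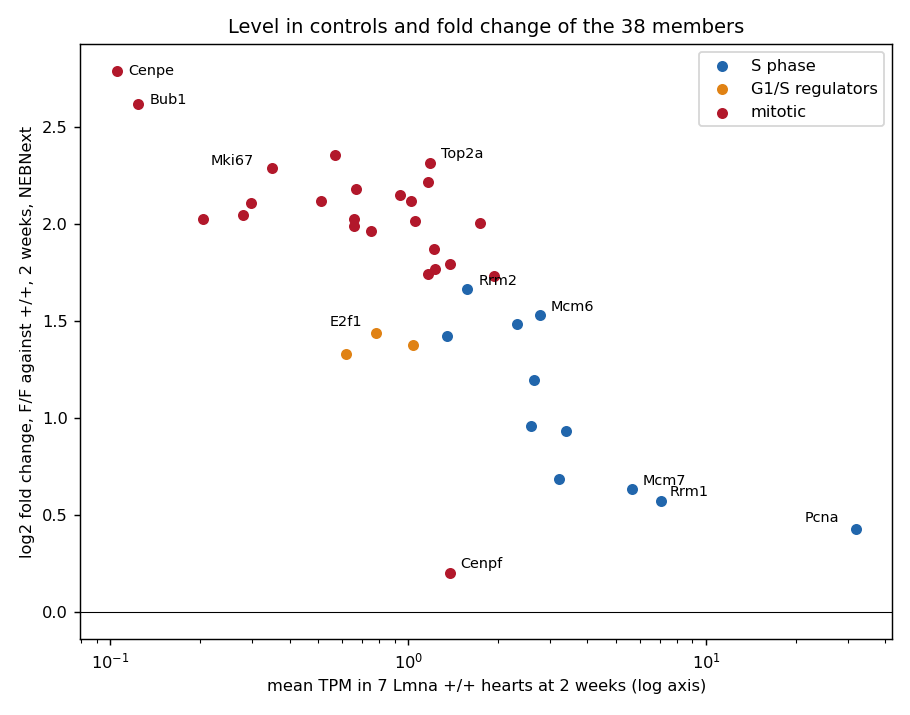
Mean TPM of each member in 7 +/+ hearts of 2 weeks (log axis) against its log2 fold change in F/F, by group of genes. S phase genes (blue) run from Rrm2 at upper left to Pcna at lower right, mitotic genes (red) lie at lower TPM and larger fold changes, and Cenpf stands apart at 0.20.

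The hearts of 2 weeks carry 2 pool labels, each with both genotypes: KIUC033 with 2 F/F and 5 +/+ hearts, and KIUC035 with 3 F/F and 2 +/+ hearts. Fitted alone, KIUC035 gave 37 of 38 members higher, where 18.3% of all genes tested in that pool passed as higher (edgeR, 2751 of 15068), with median log2 fold changes of 1.32 for S phase, 1.72 for G1/S and 2.38 for mitosis. KIUC033, which holds replicate 1 of F/F, gave 1 of 38 (Kif11, edgeR adjusted p = 0.0458), where 1.46% of all genes did (204 of 13970), with medians of 0.49, 0.99 and 1.51, and Pcna had a log2 fold change of -0.05 there. In both pools all mitotic genes that passed the filter had log2 fold changes above 0, 23 in KIUC033 and 24 in KIUC035.

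At 1 week after tamoxifen no member passed the test between F/F and +/+ hearts. Of 38 members 0 passed by edgeR, and DESeq2 and limma called 0 as well, where 0.0256% of all genes tested did (edgeR, 4 of 15627). In 1 member, Rrm1, the unadjusted edgeR p was under 0.05, at 0.0405, with a log2 fold change of -0.40. Mcm6 had 7.13, 8.95, 6.27 and 6.80 CPM in the 4 F/F hearts, against 8.15, 7.44, 5.34, 7.86 and 8.26 CPM in the 5 +/+ hearts, and Plk1 0.465, 0.404, 0.388 and 0.354 CPM in F/F, against 1.06, 0.238, 0.410, 0.223 and 0.229 CPM in +/+ hearts. These groups overlapped. Mki67 had 0.852, 0.578, 0.222 and 0.637 CPM in the 4 F/F hearts, against 0.532, 0.238, 0.410, 0.167 and 0.229 CPM in the 5 +/+ hearts (log2 fold change 0.85 ± 0.63, SE, edgeR adjusted p = 0.657). In Mki67 3 of 4 F/F hearts exceeded every +/+ heart, and in Top2a and Cenpe 2 of 4 did, with log2 fold changes of 0.77 ± 0.48 and 1.05 ± 0.98 (SE) that did not pass (edgeR adjusted p = 0.596 and 0.734). Cenpe was at 0 in 3 of the 5 +/+ hearts. Most members did not share this direction, since log2 fold changes were above 0 in 9 of 24 mitotic genes and in 12 of 38 members. The median log2 fold change was -0.17 for mitosis and -0.06 for S phase, against -0.005 over all genes. Counts of single F/F hearts above every +/+ heart were not made over all genes. The median 95% interval of a member was 1.02 wide on the log2 scale for S phase, 1.82 for G1/S and 1.92 for mitosis.

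At 11 days no member passed either, among 2 F/F and 3 +/+ hearts, where 0.0% of all genes tested did (edgeR, 0 of 15627, with 1302 at an unadjusted p under 0.05, 30 called by DESeq2 and 0 by limma). Among the members 0 had an unadjusted p under 0.05, DESeq2 and limma called 0, and 0 passed when any 1 of the 5 libraries was left out. The 2 libraries labelled F/F had S phase scores of 3.39 and 3.25, against 3.14, 3.16 and 3.35 in the 3 labelled +/+. Their mitotic scores were 1.69 and 1.39, against 1.30, 1.38 and 1.67 in +/+. The libraries of each earlier time came from a pool of their own, so time and pool cannot be told apart and levels are not compared across times.

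The Lmna effect on 22 of 38 members was higher at 2 weeks than at 1 week, by the test of the difference itself, where 6.52% of all genes tested were (edgeR interaction contrast, adjusted p under 0.05). These were 7 of 11 S phase genes, 1 of 3 G1/S regulators and 14 of 24 mitotic genes, with median differences of 1.25, 1.47 and 2.21 on the log2 scale. Rrm2 had a log2 fold change of 1.67 at 2 weeks and of -0.52 at 1 week, and the difference was 2.19 ± 0.38 (SE, edgeR adjusted p = 0.00183). Nusap1 had 2.12 at 2 weeks and -0.97 at 1 week, a difference of 3.09 ± 0.67 (SE, edgeR adjusted p = 0.00517). Top2a, Mki67 and Cenpe, among the largest at 2 weeks, did not pass this test, with differences of 1.54, 1.44 and 1.74 and edgeR adjusted p of 0.0910, 0.228 and 0.394. Without replicate 1 of the F/F hearts of 2 weeks, 34 members passed.

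In the QuantSeq hearts with cGas, genes of S phase, G1/S and mitosis were higher in F/F than in F/+. Of 38 members 20 passed as higher and 0 as lower, where 3.74% of the 14812 genes tested passed as higher (edgeR), and all 20 were among the 37 of NEBNext. S phase contributed 5 of 11: Mcm6 at 0.83, Mcm3 at 0.72, Tyms at 0.85, Tk1 at 0.83 and Pcna at 0.55 on the log2 scale. Mcm6 had 5.02 to 7.44 (median 6.30) CPM in the 6 F/F hearts, against 2.60 to 4.91 (median 3.34) CPM in the 6 F/+ hearts, without overlap (log2 fold change 0.83 ± 0.17, SE, edgeR adjusted p = 0.00633). Pcna had 11.2 to 15.4 (median 12.2) CPM in F/F, against 7.33 to 10.3 (median 8.57) CPM in F/+ hearts, also without overlap (edgeR adjusted p = 0.0275). Rrm1 had 0.08 ± 0.14 and Rrm2 0.74 ± 0.27 (SE), and neither passed (edgeR adjusted p = 0.811 and 0.118). Mcm5 did not pass either, although its log2 fold change of 0.93 was the largest of the S phase genes and its groups did not overlap.

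Of the G1/S regulators E2f1 and Ccne2 passed. E2f1 had 1.04 to 2.58 (median 2.11) CPM in F/F, against 0.371 to 1.11 (median 0.661) CPM in F/+ hearts, and 5 of 6 F/F hearts exceeded every F/+ heart. Its log2 fold change of 1.46 ± 0.32 was the largest of the members in this comparison (SE, edgeR adjusted p = 0.0109). Ccne2 was higher by 0.92 (edgeR adjusted p = 0.0358), and Ccne1, at 0.31, did not pass (edgeR adjusted p = 0.629).

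Mitosis contributed 13 of 24. Spindle and cytokinesis genes passed most often, 6 of 7, with Prc1 at 0.73, Nusap1 at 0.87, Kif20a at 1.06, Tacc3 at 0.97, Kif11 at 0.92 and Tpx2 at 0.68, while Anln had 0.49 (edgeR adjusted p = 0.216). Of the cyclins and kinases 4 of 7 passed, which were Ccnb1 at 1.36, Ccnb2 at 1.08, Cdk1 at 0.99 and Ccna2 at 0.98. Birc5 at 1.11, Ube2c at 0.87 and Top2a at 0.74 passed too, with edgeR adjusted p at most 0.0480. Top2a had 17.1 to 34.3 (median 23.3) CPM in F/F, against 12.6 to 15.9 (median 13.5) CPM in F/+ hearts, without overlap. Mki67 did not pass at 1.12 ± 0.36 (SE, edgeR adjusted p = 0.0798), nor did Bub1 at 0.32 or Cenpf, which had 12.5 to 33.8 (median 21.0) CPM in F/F, against 10.1 to 46.1 (median 19.4) CPM in F/+ hearts.

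The count of 20 depended on single libraries. It fell to 2 without F/+ replicate 1 or without F/+ replicate 3, to 12 without F/+ replicate 5, and to 8, 7, 13 and 7 without F/F replicates 1, 2, 3 and 5, while over all 12 left-out libraries the median log2 fold change stayed within 0.59 to 0.82 for S phase and 0.82 to 1.03 for mitosis. Groups stood apart in 4 of 11 S phase and 3 of 24 mitotic genes, where 2.39% of all genes tested did with F/F higher. In NEBNext at 2 weeks they stood apart in 2 of 11 and 15 of 24, against 6.68% of all genes, counted over both pools without adjustment. The 2 kits differ in their controls (F/+ and +/+), their chemistry and their pools, so the smaller fold changes of QuantSeq were not tested against those of NEBNext.

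Without cGas, 2 members passed as higher in F/F than in F/+ hearts, with 4 hearts a group. All 4 F/+ hearts without cGas were male, and the F/F hearts without cGas were of both sexes. Sex was a term of the fit, but levels per library and counts of groups that stood apart are not adjusted for it. Log2 fold changes were above 0 in 38 of 38, with medians of 0.66 for S phase, 0.81 for G1/S and 1.04 for mitosis, against -0.02 over all genes. Mcm6 and Birc5 passed, where 0.5% of all genes tested passed as higher (edgeR). Mcm6 had 5.35, 5.12, 4.41 and 7.28 CPM in the 4 F/F hearts, against 3.02, 2.37, 2.15 and 2.69 CPM in the 4 F/+ hearts (log2 fold change 1.10 ± 0.22, SE, edgeR adjusted p = 0.0215). Birc5 had 2.48, 3.48, 2.18 and 5.52 CPM in F/F, against 1.60, 0.841, 1.21 and 1.47 CPM in F/+ hearts (log2 fold change 1.50 ± 0.34, SE, edgeR adjusted p = 0.0442). Both sets of groups stood apart. Mcm5 had the largest log2 fold change of the S phase genes, 1.11, and did not pass. Plk1, with 1.28, 1.43, 0.741 and 2.97 CPM in F/F, against 0.640, 0.459, 0.474 and 0.737 CPM in F/+ hearts, had the largest log2 fold change, 1.64 ± 0.40 (SE, edgeR adjusted p = 0.0588). Every F/F heart was above every F/+ heart in 12 of 24 mitotic, 3 of 11 S phase and 1 of 3 G1/S genes, where 3.21% of all genes tested were. The count of 2 became 0 without F/F replicate 1 or 4 or F/+ replicate 2, 3 or 4, 1 without F/F replicate 2, and 7 without F/F replicate 3, which had the lowest mitotic score of the F/F hearts. By other procedures it was 8 (DESeq2), 13 (no filter on low counts), 7 (only the compared groups), 1 (no covariates) and 0 (limma-voom).

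Whether the Lmna effect on these genes depended on cGas was tested as a difference between effects, and 0 of 38 members passed, where 0.0% of all genes did (edgeR interaction contrast, 0 of 14812, with 215 at an unadjusted p under 0.05 and 0 called by DESeq2 and limma). Among the members 0 had an unadjusted p under 0.05. The difference, without minus with cGas, had a median of -0.01 for S phase, -0.25 for G1/S and 0.18 for mitosis on the log2 scale. For Mcm6 it was 0.27 ± 0.28 (SE, interval -0.28 to 0.82), for Plk1 0.57 ± 0.53 (-0.47 to 1.60) and for E2f1 -0.59 ± 0.53 (-1.64 to 0.45). The median 95% interval, from its lower to its upper end, was 1.33 wide for S phase, 1.99 for G1/S and 1.76 for mitosis. Differences as large as the ends of such intervals therefore remain possible. The F/+ hearts without cGas were all male and the other QuantSeq groups of both sexes, with sex as a term of the fit. Within F/F hearts, cGas null against cGas +/+ gave 0 of 38 called, with 6 log2 fold changes above 0 and medians of -0.15 for S phase and -0.15 for mitosis, where 0.0% of all genes passed (edgeR, 850 at an unadjusted p under 0.05, and 5 called by DESeq2; 1 member had an unadjusted p under 0.05 and DESeq2 called 0). Within F/+ hearts it gave 0 of 38, with 5 above 0 and medians of -0.20 and -0.35, where 0.0% of all genes passed (edgeR, 616 at an unadjusted p under 0.05, and 1 called by DESeq2; 0 members had an unadjusted p under 0.05 and DESeq2 called 0).

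Genes of the cell cycle outside the 38 were read from lists for each step, beside the 16.2% of all genes that passed as higher and the 13.0% that passed as lower in F/F hearts of 2 weeks in NEBNext. Of 42 further replication genes 27 passed as higher and 2 as lower in that comparison (median log2 fold change 0.72). Among those with the smallest p were Lig1, which joins Okazaki fragments (1.32 ± 0.24, SE), and the flap nuclease gene Fen1 (0.87 ± 0.18, SE), with edgeR adjusted p of at most 0.000863. Of 56 further genes of mitosis 55 were tested and 48 passed as higher (median 1.88), led by Cdca8 (2.18 ± 0.30), Cdca3 (2.44 ± 0.39) and Racgap1 (2.14 ± 0.35), with edgeR adjusted p of at most 0.000102. In QuantSeq with cGas 2 of 41 and 13 of 51 tested genes of these lists passed as higher, with medians of 0.28 and 0.84, where 3.74% of all genes did, so that the replication count lay near the share over all genes. Without cGas 0 of 41 and 2 of 51 passed, where 0.5% of all genes did.

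Further lists covered genes that act before S phase, where the same shares of 16.2% and 13.0% apply. Of 8 G1 cyclins, their kinases and inducers, 2 passed in NEBNext at 2 weeks, Myc (2.18 ± 0.34, SE, edgeR adjusted p = 6.86e-05) and Cdk6 (0.56 ± 0.17, edgeR adjusted p = 0.0154), and Cdc25a, next by p, had 0.39 ± 0.21 (edgeR adjusted p = 0.173). Of 7 inhibitors of cyclin-dependent kinases 1 rose and 1 fell, which is near the shares over all genes. Cdkn1a, which encodes p21 and halts the cycle, had 52.3, 111, 200, 129 and 160 CPM in F/F, against 24.7 to 88.1 (median 38.4) CPM in +/+ hearts, with replicate 1 of F/F inside the +/+ range and the other 4 above it (log2 fold change 1.27 ± 0.29, SE, edgeR adjusted p = 0.00201). In QuantSeq with cGas Cdkn1a had 28.5 to 48.7 (median 38.8) CPM in F/F, against 8.61 to 25.1 (median 11.5) CPM in F/+ hearts, without overlap (1.57 ± 0.31, SE, edgeR adjusted p = 0.00481). Cdkn1c, p57, fell by 0.64 ± 0.15 in NEBNext (SE, edgeR adjusted p = 0.00259), and Cdkn2b had 0.97 ± 0.39 (edgeR adjusted p = 0.0612). Of 20 genes of the pocket proteins, E2F factors and DREAM complex with their regulators 8 rose and 2 fell, among them E2f2 at 2.10 ± 0.44, the mitotic inhibitory kinase gene Pkmyt1 at 1.29 ± 0.33 and the repressor E2f6 at -0.53 ± 0.12 (SE, edgeR adjusted p at most 0.00449).

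Markers of several cell types moved in the same hearts as the cell cycle genes. Of all genes tested, 16.2% passed as higher and 13.0% as lower in NEBNext at 2 weeks. In QuantSeq 3.74% passed as higher with cGas and 0.5% without it. The 12 macrophage markers summed to 945 to 4222 CPM in F/F, against 547 to 823 CPM in +/+ hearts of 2 weeks, and 12 of 12 passed as higher (edgeR). In QuantSeq with cGas they summed to 619 to 1560 CPM in F/F, against 371 to 487 CPM in F/+ hearts (11 of 12 higher). Without cGas the sums were 408 to 868 CPM in F/F, against 348 to 579 CPM in F/+ hearts (3 of 12 higher). The difference between these effects passed in 0 of 12 markers (edgeR interaction contrast), where 0.0% of all genes passed. F/F replicate 1 of NEBNext was lowest among F/F in the macrophage sum, as in the S phase and mitotic scores, and replicate 3 highest in all 3. These 2 hearts are of different pools, and hearts are not ranked here by the other marker lists. The 6 markers of activated fibroblasts summed to 149 to 833 CPM in F/F, against 143 to 396 CPM in +/+ hearts of 2 weeks (4 of 6 higher), and the 8 fibroblast markers to 2992 to 4444 CPM in F/F, against 2256 to 4214 CPM in +/+ hearts (5 higher and 1 lower). The 8 T and NK cell markers summed to 3.53 to 14.8 CPM in F/F, against 2.07 to 4.27 CPM in +/+ hearts (5 of 8 higher). In QuantSeq with cGas 1 of 8 fibroblast, 1 of 6 activated fibroblast and 0 of 2 tested T and NK cell markers passed as higher. Without cGas 0 of each of these lists did.

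In the other marker lists 2 genes passed as higher in NEBNext at 2 weeks, where 16.2% of all genes passed as higher and 13.0% as lower. The 7 cardiomyocyte markers summed to 30719 to 51017 CPM in F/F, against 58778 to 76317 CPM in +/+ hearts of 2 weeks, and 6 of 7 passed as lower. Of 6 endothelial markers 0 passed as higher and 2 as lower, and of the 4 erythroid and 2 B cell markers tested 0 passed (edgeR). Of 6 pericyte and smooth muscle markers 1 was lower, of 4 neutrophil markers tested Csf3r was higher (1.56 ± 0.43, SE, edgeR adjusted p = 0.00832) and of 4 atrial markers Nppa was higher (1.64 ± 0.49, SE, edgeR adjusted p = 0.0126). In QuantSeq 0 of 7 cardiomyocyte markers passed with or without cGas, where 0.891% and 0.027% of all genes passed as lower. No defining marker of macrophages, fibroblasts or endothelial cells was at 0 in any library of 2 weeks. The part of any of these cell types in the cell cycle values was not tested.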

How the data were processed

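Poly(A) RNA of 46 mouse heart libraries was sequenced with 2 kits. The deposited count table holds whole reads per gene. Per the submitters' processing notes, the authors used STAR 2.7.9 and the build mm39. No source used here names the counter, annotation or strand setting, so reads of overlapping or antisense genes cannot be told apart. A second table deposited by the authors holds TPM for the 26 NEBNext libraries (gene lengths not stated). Its 20 QuantSeq columns equal CPM computed from the deposited counts within 0.01.

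Counts were fitted in edgeR 4.0.16 (R 4.3.3) with TMM scaling, filterByExpr (minimum count 10, minimum total 15) and the quasi-likelihood test, all 26 NEBNext libraries in 1 fit with sex and, at 2 weeks, pool as covariates, and all 20 QuantSeq libraries in another with sex. P-values were Benjamini-Hochberg adjusted over all 15627 or 14812 genes tested and called under 0.05. The procedure was checked on simulated data. Normalised CPM is the count over the TMM-scaled library size. Intervals of fold changes are nominal 95% intervals, from the normal distribution and an SE taken from the F statistic. They are narrower than the quasi-likelihood test implies, so some leave out 0 where the unadjusted p is above 0.05. For Cdkn2b in QuantSeq with cGas the interval was 0.005 to 1.99, with an unadjusted edgeR p of 0.0611. The targeted genes were compared by exact two-sided permutation tests. Depth was 8477358 to 25856892 counts in NEBNext and 22099181 to 33993289 in QuantSeq, and it sets the precision of genes with few reads.

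Alternatives were DESeq2 1.42.0, limma 3.58.1 (voom, or log2 of the deposited values with a pseudocount of 1 or 0.1), RLE scaling, no filter, no covariates, only the compared groups, removal of mitochondrial genes, single pools and each library left out. Members and lists were chosen with earlier results of these data known, and described by counts and medians without a test. Values per library are printed for the 1 or 2 members of each role with the smallest p in NEBNext at 2 weeks and for members far from their role, and from each further list the 3 genes with the smallest p are named, except 1 replication gene that is not reported here. Promoters are RefSeq's on GRCm38.p6, another build than that of the files, matched by symbol.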

Additional observations from a re-analysis of the deposited data

Results flagged for a closer look

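Single libraries lay far from the others of their group in 11 of 168 sets of values examined, and chance flags about 1 in 20 groups. At 1 week these were E2f1 at 1.78 CPM in F/F replicate 1, Cenpf at 12.2 CPM in F/F replicate 4 and at 0.803 CPM in +/+ replicate 5, Mcm6 at 5.34 CPM in +/+ replicate 3, and +/+ replicate 1 with Plk1 at 1.06 CPM and a mitotic score of 1.37. At 2 weeks in NEBNext they were Mki67 at 13.4 CPM in F/F replicate 2, of pool KIUC033, and the G1/S score of 0.875 in +/+ replicate 4. In QuantSeq they were Tyms at 2.47 CPM in replicate 2 of the F/F hearts without cGas, and, in replicate 5 of the F/F hearts with cGas, Plk1 at 2.90 CPM and Foxm1 at 1.48 CPM.

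The Lmna effect differed between times, by the edgeR interaction contrast, in 22 members, all higher at 2 weeks. Among the members described by library, the effect at 2 weeks minus that at 1 week was 1.58 for Mcm6, 1.34 for Mcm5, 2.19 for Rrm2, 1.55 for Tyms and 1.72 for Ccne1 on the log2 scale. It was 2.39 for Plk1, 2.05 for Aurka, 2.22 for Ube2c, 1.99 for Bub1b, 1.91 for Tacc3 and 2.33 for Kif11. The times came from different pools, so the part of the pool in these differences cannot be told apart from that of time.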

How the results depend on the processing

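No paired analysis was possible because the labels give no replicate number that groups share. At 2 weeks in NEBNext, 36 or 37 of 38 members were called by DESeq2, limma, RLE scaling, no filter, no covariates, removal of mitochondrial genes, the compared groups alone and pool KIUC035, and 1 in pool KIUC033 (349 genes). Left-out libraries gave 31 to 37 members and 3046 to 5261 genes. For the difference between 2 weeks and 1 week they gave 16 to 34 members and 1130 to 2966 genes. With cGas in QuantSeq, left-out libraries gave 2 to 27 members and 190 to 1169 genes, DESeq2 called 1054 genes and no filter 1183. Without cGas, members called were 8 by DESeq2, 13 with no filter, 7 with the compared groups alone, 1 with no covariates or limma at a pseudocount of 0.1, and 0 by voom or limma at a pseudocount of 1. The genes called were 251, 515, 246 and 21 under the first 4 of these, 10 by voom and 13 by limma at a pseudocount of 1, while left-out libraries gave 0 to 7 members and 7 to 175 genes. At 1 week DESeq2 called 20 genes, no filter 109 and the compared groups alone 2, with 3 to 9 over left-out libraries; at 11 days these were 30, 201 and 1, with 0 to 235. The difference between effects without and with cGas gave 23 genes with no filter. cGas null against cGas +/+ gave 5 genes by DESeq2, 93 with no filter and 2 with the compared groups alone in F/F, and 1 and 93 in F/+. Signs turned for Cenpf with no covariates (-0.37 at 2 weeks, -0.17 in QuantSeq with cGas) and over left-out libraries (-0.20 to 0.21 with cGas, -0.24 to 0.43 without), for Pcna in pool KIUC033 (-0.050) and for Bub1 without cGas (-0.043 with no covariates, -0.17 to 0.18 over left-out libraries). The cause was not tested. Depth limits precision, and the median 95% interval at 2 weeks in NEBNext was 1.50 wide for the G1/S regulators, 1.45 for mitotic and 0.936 for S phase genes.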

Other observations

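The ratio of Mki67 to Birc5 in normalised CPM, chosen after the values were seen, was not alike between pools. It was taken over both genotypes of each pool and was not split by genotype. It had a median of 0.1 (range 0 to 0.113) in the 5 libraries of KIUC037 (11 days), 0.571 (range 0.143 to 1.00) in the 9 of KIUC030 (1 week), 2.16 (range 0.732 to 3.20) in the 7 of KIUC033 and 0.632 (range 0.576 to 1.00) in the 5 of KIUC035 (both 2 weeks). The 2 pools of 2 weeks differed as well, and they hold the 2 genotypes in unlike proportions. Levels of these 2 genes by heart are thus best not compared across the pools of 2 weeks. Ratios of other mitotic genes were not examined, so the same limit may hold for their levels. The fold changes come from a fit with the pool as a term. The cause was not tested.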
